A study of Prunus persica with 9 samples.

Results

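The change in leaf miRNA levels between 1 h and 24 h after application of PpPep2 to peach (Prunus persica) was examined by comparing the 3 small RNA libraries taken at 24 h with the 3 taken at 1 h, 6 of the 9 libraries of the series. The 135 of the 210 listed pre_miRNA genes whose mean over the 9 libraries was 5 normalized counts or more were compared. All 33 genes with a miRNA name, in 18 families, were included, and these names come from the list of the study. Next to the limit, ENSRNA049996450 was included with a mean of 5.15 and ENSRNA049996847 was left out with a mean of 4.93. Leaves of juvenile plants of the cultivar Big Top, produced in vitro and kept in a glasshouse, had received 1 μM PpPep2 in both groups, and each replicate pooled leaves of several plants. The 3 libraries of time zero (t0), which the labels call mock and the study's text calls untreated, give the level before treatment. Plants without peptide at 1 h or 24 h were not analysed here, so a difference between the 2 times cannot be told apart from a difference due to age, time or handling. The values are small RNA reads per pre_miRNA gene of whole leaf tissue, in which fewer cells of a type and less RNA per cell cannot be told apart. They hold no marker genes with which the labelled tissue could be checked.

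Plant elicitor peptides (Peps) are short peptides released from precursor proteins on damage, which are perceived by receptor kinases at the cell surface and switch on pattern-triggered immunity. Plant miRNAs are cut from hairpin precursors by Dicer-like proteins, loaded into Argonaute proteins and guided by near-perfect pairing to mRNAs, which are then cleaved or translated less. Several conserved families control growth, hormone signals, nutrient uptake and immune receptors, and others control the silencing machinery itself.

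The mature sequences on which the comparison turns are shown first, because several genes of a family share 1 sequence and their values are then not independent. They come from the study's supplementary list, which gives 39 mature sequences for the 33 genes, 29 of them distinct, with 27 distinct seeds. Capitals mark the seed, bases 2 to 8 from the 5′ end. The first lines are named genes whose 3 libraries at 24 h lay all below or all above those at 1 h. Of the 10 such genes, miR8127 is not shown, and miR395f and miR395j are covered by the miR395 sequence further down.
miR169d: uGAGCCAAggaugacuugcca
miR390: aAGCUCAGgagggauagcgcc
miR167a: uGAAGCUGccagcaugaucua
miR162: uCGAUAAAccucugcauccag
miR403: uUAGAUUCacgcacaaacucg
miR482f: uCUUUCCUacuccacccauucc
miR482e: uUGCCUAUuccucccaugccaa
The 9 miR395 genes share 1 seed. The first sequence belongs to 8 of them, and miR395a differs from it by A17G and U20C, counted from the 5′ end.
miR395l and 7 others, 3p: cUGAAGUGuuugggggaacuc
miR395a, 3p: cUGAAGUGuuuggggggaccc
The genes of the miR535 and miR7122 families each differ by 1 base, A5G from miR535a to miR535b, which falls in the seed, and C20U from the 5p sequence of miR7122a to that of miR7122b. The sequence of miR156g and miR156h is identical.
miR535a: uGACAACGagagagagcacgc
miR535b: uGACGACGagagagagcacgc
miR7122a, 5p: uUAUACAAugaaaucacggccg
miR7122b, 5p: uUAUACAAugaaaucacggucg
miR156g and miR156h: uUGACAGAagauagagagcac
In the genes of the next pair, 1 h replicate 1 lay nearer to t0 than the other 1 h libraries did.
miR166e: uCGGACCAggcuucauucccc
miR482c, 3p: uUCCCAAGcccgcccauuccaa

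Replicate 1 of 1 h differed from the other libraries of its group in some measures and not in others. Its normalized counts summed to 274956 over the listed genes, against 358637 to 368510 in the other 5 PpPep2 libraries and 266907 to 328582 at t0. It was the farthest of the 3 libraries at 1 h for 70 of the 135 genes, replicate 2 for 28 and replicate 3 for 37. The median standard deviation of a gene on the log2 scale was 0.41 at 1 h, 0.34 at t0 and 0.32 at 24 h, and the standard deviation was the largest at 1 h for 56 genes, at t0 for 40 and at 24 h for 39. The root mean square of the log2 differences was 1.19 between replicates 1 and 2, 1.54 between 1 and 3 and 1.04 between 2 and 3, against 0.946 to 1.22 between libraries at 24 h. By the same measure replicate 3 was the farthest of the 1 h libraries from the means of t0 and of 24 h, at 1.31 from each. To look for a library deposited a second time, counts were compared by chi-square per degree of freedom, which was 236 and 216 between replicate 1 and the other 1 h libraries, 18.1 between these 2, 22.2 to 55.3 at 24 h and 64.0 to 86.2 at t0, so no pair was alike within counting noise. Differences between 24 h and 1 h are also given without 1 h replicate 1 for the miRNAs described with their values. The depth, read from the value of 1 read, was 224968 to 338604 reads on the listed genes at 1 h and 138929 to 292378 at 24 h. The smallest amount that a library could show, taken as 3 reads, was 2.44 to 4.91 normalized counts at 1 h and 3.77 to 7.84 at 24 h, which covers counting error only.

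No gene passed the test between 24 h and 1 h. With limma on log2(normalized count + 1), 0 of 135 genes (0.0%) had an adjusted p under 0.05, and the smallest adjusted p was 0.307. With an unadjusted p below 0.05, 12 genes were lower at 24 h (8.89% of those tested) and 6 genes higher (4.44%). Of these, 8 of the 33 named genes were lower and 2 higher, but the study chose its named list on the same libraries, and the count is not independent evidence. The 3 libraries at 24 h lay all below the 3 at 1 h for 13 genes (9.63%) and all above them for 16 genes (11.9%). The named list gave 6 and 4 of these. By the mean, 62 genes were lower and 73 higher at 24 h, and among the named genes 19 were lower and 14 higher. The median log2 difference was 0.03 over all genes tested and -0.38 over the named genes. With all libraries brought to 1 total, these medians moved to -0.08 and -0.50, so that small differences are relative to this shift. The 95% interval of the difference lay within a log2 difference of 1 in size for 56 genes of 135 and 9 of the named ones, and for the others a change of 2-fold was not excluded. Without 1 h replicate 1, 23 genes lay all below and 22 all above, counts that are easier to reach with 2 libraries than with 3, and the number of genes with an adjusted p under 0.05 was 1.

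**Figure D1:**
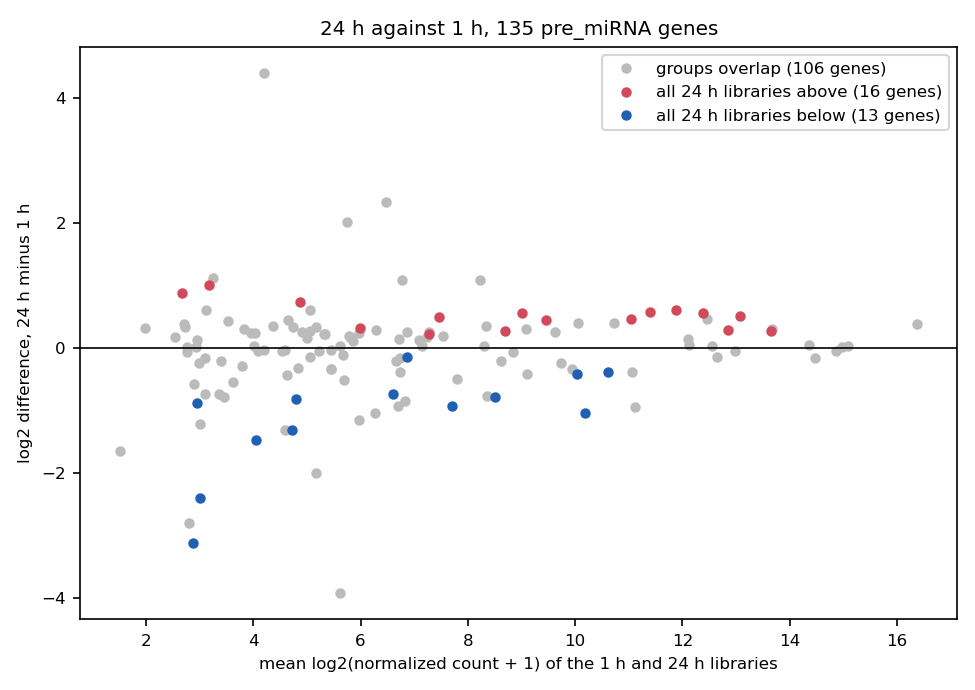
Log2 difference of 24 h minus 1 h (vertical axis) against the mean level of the 6 PpPep2 libraries (horizontal axis, log2 of normalized count + 1), with 1 point for each of the 135 genes. Blue points are the 13 genes whose 24 h libraries all lay below those of 1 h, red points the 16 genes whose libraries all lay above, and the largest differences of both signs are found at low levels.

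The steps from t0 to 1 h and from 1 h to 24 h were set side by side to describe the course of each gene. Both steps use the same 1 h libraries, so a high or low 1 h value moves them in opposite directions, and the classes carry no test. With a step of 0.5 on the log2 scale as the limit, 15 of the 135 genes kept moving in 1 direction (11.1%), 34 levelled off after a step by 1 h (25.2%), 9 returned (6.67%), 21 moved late (15.6%) and 56 showed a small step in both intervals (41.5%). Of the 33 named genes, 13 kept moving, 10 levelled off, 1 returned, 3 moved late and 6 showed small steps. The study called these genes as changed against t0 in the same libraries, which favours classes with a step. Their shares are therefore not independent evidence. The 13 that kept moving were all 9 miR395 genes, with miR169d, miR390, miR530 and miR156g. Among the miR395 genes, 8 share 1 mature sequence and do not count as separate observations. Of the 13 that kept moving, 8 did so without 1 h replicate 1, and outside the miR395 family these were miR169d and miR390. The class of 33 genes, 9 of them named, was another without that library.

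By the mean log2 step of their genes, the families miR156 (whose 2 genes went opposite ways, as described below), miR169, miR390, miR395 and miR530 kept moving, and miR166, miR171, miR396, miR535 and miR7122 levelled off. The miR167 family returned, miR162 and miR172 moved late, and miR159, miR168, miR403, miR482 and miR8127 showed small steps. The class of 5 families was another without 1 h replicate 1. In this case miR156, miR530 and miR403 levelled off, miR172 kept moving and miR162 had small steps. The normalization touches the first step more than the second. With the libraries scaled to the same upper quartile, the median of 1 h minus t0 over all genes tested was 0.39 in place of -0.03 (-0.20 with the same total), and 6 families had another class, among them miR169 and miR390, whose step by 1 h was then -0.39 and -0.08. With the same total 4 families had another class. The miR395 family kept moving, miR167 returned and miR166, miR171, miR535 and miR7122 levelled off without 1 h replicate 1 and under both scalings. For miR395 without 1 h replicate 1 the mean step by 1 h was -0.64, but not all its genes kept moving. The step was then -0.44 in miR395a, the most abundant gene, -0.11 in miR395k and 0.17 in miR395n, and these genes moved late. For miR171 the class of levelling off rests on miR171c, whose step by 1 h was 2.21 from 0 to 5.86 normalized counts at t0. The step of miR171a, which has the same mature sequence and more reads, was 0.41 and under the limit.

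**Figure D2:**
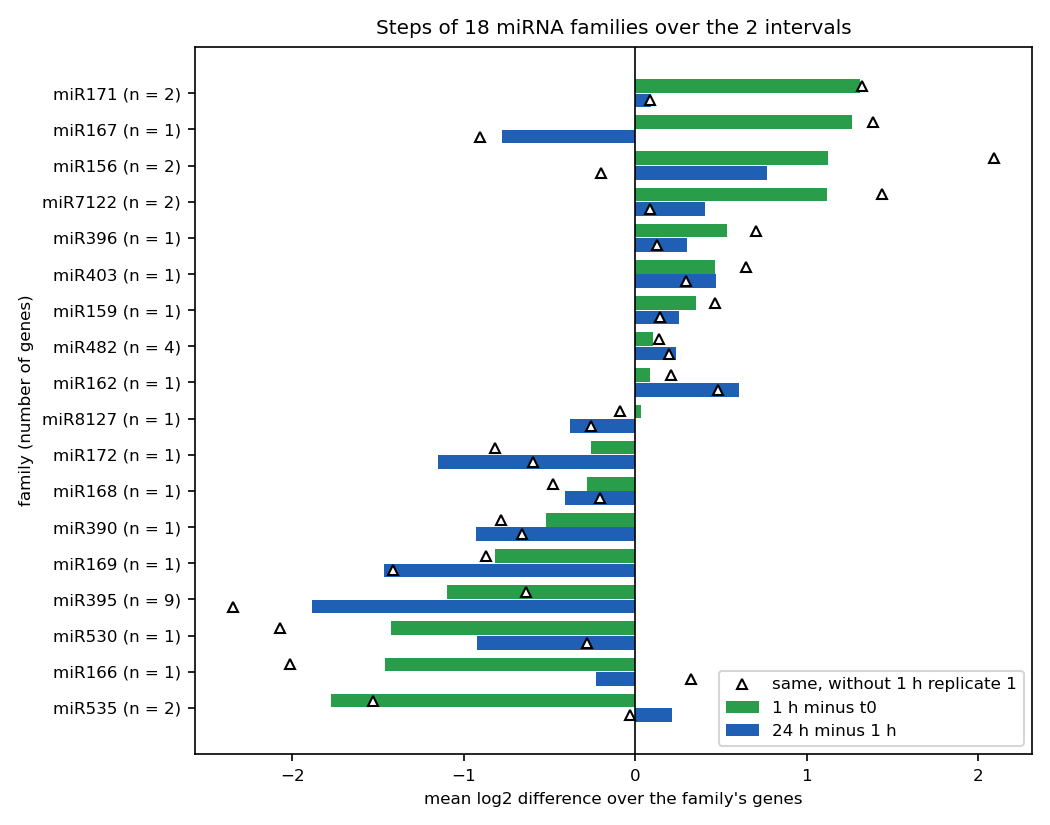
Mean log2 difference of 1 h minus t0 (green bars) and of 24 h minus 1 h (blue bars) for the 18 families, with the number of genes of each family in brackets. Open triangles give the same means without 1 h replicate 1. In miR535 a mean step of -1.77 by 1 h was followed by 0.21, and in miR395 a mean step of -1.10 was followed by -1.88.

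By the mean of log2 values, the lowest levels at 24 h relative to 1 h were those of the miR395 family, which pairs with mRNAs of ATP sulfurylases and of a sulfate transporter and limits sulfate assimilation in Arabidopsis. All 9 genes had a lower mean of log2 values at 24 h than at 1 h, with differences from -3.92 to -0.51 and a median of -1.64, against 0.03 over all genes tested. Values of 0 at 24 h weigh on this scale, and on the log2 ratio of the summed counts the family, at -1.10, came after miR172 at -1.43, miR169 at -1.40 and miR530 at -1.23. Adjusted p-values were 0.325 or more. The highest gene was miR395a (ENSRNA049996107), with 3956, 8035 and 6962 normalized counts at t0, 1507, 3059 and 6474 at 1 h and 1665, 889 and 2822 at 24 h. Replicate 1 of 1 h was thus within the range of 24 h, and replicate 3 of 1 h within that of t0. The log2 difference was -0.95 with all libraries (95% interval -2.26 to 0.37) and -1.47 without 1 h replicate 1. Without 1 h replicate 3 it was -0.41, which is under the class limit of 0.5, so its size depended on which 1 h library was left out.

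The other 8 genes of the family share the mature sequence shown above, and the division of reads between them was made by the authors' quantification. Their sum was 1424, 2711 and 2072 normalized counts at t0, 368, 1298 and 1648 at 1 h and 433, 335 and 542 at 24 h. Replicate 1 of 1 h was again at the level of 24 h, whereas the other 1 h libraries were above all libraries of 24 h. The largest part of this sum was miR395l (ENSRNA049996100), with 884, 1539 and 1156 at t0, 132, 682 and 858 at 1 h and 235, 227 and 293 at 24 h. Its log2 difference was -0.77 (adjusted p = 0.549) with all libraries and -1.61 without 1 h replicate 1, where it had the only adjusted p under 0.05 (0.0369, limma). Without 1 h replicate 3 the difference was -0.27. In fits with all replicates its adjusted p ran from 0.159 to 0.657.

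The largest differences of the family belonged to genes with at least 1 library at 0 at 24 h. Normalized counts of miR395k (ENSRNA049996172) were 70.6, 265 and 362 at 1 h and 21.3, 0 and 88.1 at 24 h, and the groups overlapped with all libraries but not without 1 h replicate 1. Its log2 difference was -3.92 (-4.63 without 1 h replicate 1) and includes the library at 0, and the ratio of the group means was 0.157. Without that replicate its course was that of a gene that moved late. In miR395j (ENSRNA049996115) 17.9, 30.2 and 16.4 normalized counts at 1 h were followed by 14.8, 0 and 0, so all libraries of 24 h were below those of 1 h. In miR395f (ENSRNA049996180) the values were 11.4, 12.4 and 37.7 at 1 h and 4.92, 0 and 6.29 at 24 h, again without overlap. The log2 differences were -3.11 for miR395j and -2.40 for miR395f, and became -3.22 and -2.70 without 1 h replicate 1 and -1.71 and -1.48 with 5 in place of 1 added before the log. When 24 h replicate 1 was left out the adjusted p of miR395j was 0.0162, and when 24 h replicate 3 was left out that of miR395i was 0.00301 (limma). These are the libraries in which the gene was above 0 at 24 h.

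Among the regulators of transcription factors, miR169d (ENSRNA049996028), which pairs with mRNAs of NF-YA subunits of the nuclear factor Y complex, was lower at each time. It had 58.5, 42.7 and 42.0 normalized counts at t0, 28.4, 20.6 and 31.1 at 1 h and 4.92, 7.84 and 17.6 at 24 h. No group overlapped with the next, although replicates 1 and 2 of 24 h were at the floor of 3 reads. The log2 difference between 24 h and 1 h was -1.46 (95% interval -2.41 to -0.52, adjusted p = 0.307), and it was -1.41 without 1 h replicate 1. Without 24 h replicate 3 it was -1.92 and the adjusted p was 0.0252. In other fits that used all replicates the adjusted p was 0.159 to 0.406.

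The miR156 and miR535 families pair with mRNAs of SPL transcription factors, which control phase change and leaf development. For miR535a (ENSRNA049997194) the step was complete at 1 h. Normalized counts were 216, 148 and 137 at t0, 26.8, 46.7 and 37.7 at 1 h and 49.2, 49.7 and 31.4 at 24 h, so the treated groups overlapped below all t0 libraries. The log2 difference between 24 h and 1 h was 0.23, with a 95% interval from -0.45 to 0.91, and 0.02 without 1 h replicate 1. For miR535b (ENSRNA049997189), 603, 447 and 348 normalized counts at t0 were followed by 115, 224 and 195 at 1 h and 235, 188 and 174 at 24 h. Its difference was 0.20 (-0.49 to 0.89), and it was -0.08 without 1 h replicate 1. In both genes replicate 1 of 1 h was the lowest of the 6 PpPep2 libraries.

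The genes miR156g (ENSRNA049996926) and miR156h (ENSRNA049996563) have the same mature sequence. In 1 h replicate 1 the reads were placed on miR156h only, with 0 normalized counts for miR156g and 478 for miR156h, as at t0, where miR156g had at most 2.49. In the other 5 PpPep2 libraries miR156g had 23.5 to 328 and miR156h 157 to 230.1. The log2 difference of miR156g was 2.03 with all libraries and -0.34 without 1 h replicate 1. The sum over the pair was 796, 495 and 791 at t0, 478, 298 and 367 at 1 h and 485, 254 and 336 at 24 h. With the deposited scaling the sum was thus lower at 1 h than at t0 in every library, and it overlapped between 1 h and 24 h. As a share of the library total, 1 h replicate 1, at 0.174%, lay above t0 replicate 2, at 0.151%. The mean of the log2 steps of the genes was instead 1.12 by 1 h and 0.77 after it. The class of this family therefore depends on how reads were divided between its genes.

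For miR166e (ENSRNA049996894), which pairs with mRNAs of HD-ZIP III factors of leaf polarity, 2835, 2830.2 and 2057 normalized counts were found at t0, 1999, 547 and 726 at 1 h and 623, 928 and 852 at 24 h. Replicate 1 of 1 h was just below t0 and the others were within or below the range of 24 h. The log2 difference of -0.23 between 24 h and 1 h turned to 0.33 without that library. For miR530 (ENSRNA050003167) the values were 448, 435 and 289 at t0, 348, 114 and 72.1 at 1 h and 60.7, 96.7 and 70.5 at 24 h. The difference was -0.92 with and -0.28 without 1 h replicate 1. For miR172b (ENSRNA049996345), which acts on AP2-type factors, it was -1.15 with and -0.59 without it, from 202, 109 and 36.0 at 1 h to 45.9, 54.9 and 27.7 at 24 h. In these genes the 1 h libraries covered most of the distance between the highest and the lowest value of the series.

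The differences after 1 h were small in the remaining families of this kind. The miR171 family acts on GRAS factors of the HAM type, miR159 on GAMYB-like factors and miR396 on growth-regulating factors. The log2 difference was 0.15 for miR171a (95% interval -0.28 to 0.58), 0.26 for miR159 (-0.25 to 0.77) and 0.30 for miR396b (-0.17 to 0.77), and without 1 h replicate 1 it was 0.08, 0.15 and 0.13. For miR171c, with 9.62 to 21.3 normalized counts at 1 h and 11.5 to 20.9 at 24 h, it was 0.04 with a wide interval from -1.63 to 1.70 (0.09 without 1 h replicate 1), and it turned to -0.08 when the libraries had the same total.

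Of the miRNAs of auxin signalling, miR390 directs the formation of trans-acting siRNAs against auxin response factors, and miR167 acts on other auxin response factors. In miR390 (ENSRNA050003783), 491, 356 and 403 normalized counts at t0 were followed by 415, 264 and 218 at 1 h and 126, 175 and 156 at 24 h. All libraries of 24 h were below all of 1 h, while those of 1 h overlapped with t0. The mean was 299 ± 103 (SD, n = 3) at 1 h. It was 152 ± 24.6 (SD, n = 3) at 24 h, with a log2 difference of -0.93 (95% interval -1.54 to -0.31) and of -0.66 without 1 h replicate 1. The adjusted p was 0.307.

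The course of miR167a (ENSRNA049997214) was the opposite of that of miR390 by 1 h. Normalized counts were 239, 188 and 172 at t0, 401, 699.7 and 385 at 1 h and 372, 261 and 219 at 24 h. All 1 h libraries were above those of both other groups, and at 24 h replicate 1 was still close to the lowest library of 1 h. The mean of 1 h was 2.48 times that of t0. The log2 difference between 24 h and 1 h was -0.78 (95% interval -1.46 to -0.10, adjusted p = 0.336), or -0.90 without 1 h replicate 1. It was the only named gene that returned, also without that library.

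The silencing machinery is itself under miRNA control, since miR162 pairs with the mRNA of DCL1, miR168 with that of AGO1 and miR403 with that of AGO2 in Arabidopsis. In miR162 (ENSRNA049996910) the 9 libraries gave 3039, 2992 and 2672 normalized counts at t0, 2589, 3049 and 3664 at 1 h and 4819.9, 4032 and 5230.2 at 24 h. The 1 h libraries spread around the level of t0, and all libraries of 24 h were above them. The means were 3101 ± 540 (SD, n = 3) and 4694 ± 609 (SD, n = 3), a ratio of 1.51, with a log2 difference of 0.60 (95% interval 0.19 to 1.02, adjusted p = 0.307). It was 0.48 without 1 h replicate 1.

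For miR403 (ENSRNA049996042) the values were 1126, 1476 and 1319 at t0, 1401, 1944 and 2125 at 1 h and 2606, 2131 and 2792 at 24 h. Again all libraries of 24 h were above those of 1 h, by a log2 difference of 0.47 (-0.01 to 0.96, adjusted p = 0.370) that was 0.30 without 1 h replicate 1, but the highest 1 h library and the lowest at 24 h were nearly equal. For miR168 (ENSRNA049996833) the groups overlapped, with 840, 543 and 560.2 at 1 h and 372, 528 and 554 at 24 h, and the difference was -0.41 (-1.04 to 0.22), or -0.21 without 1 h replicate 1. The 3 miRNAs thus did not have the same sign at this interval, and none passed the test.

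**Figure D3:**
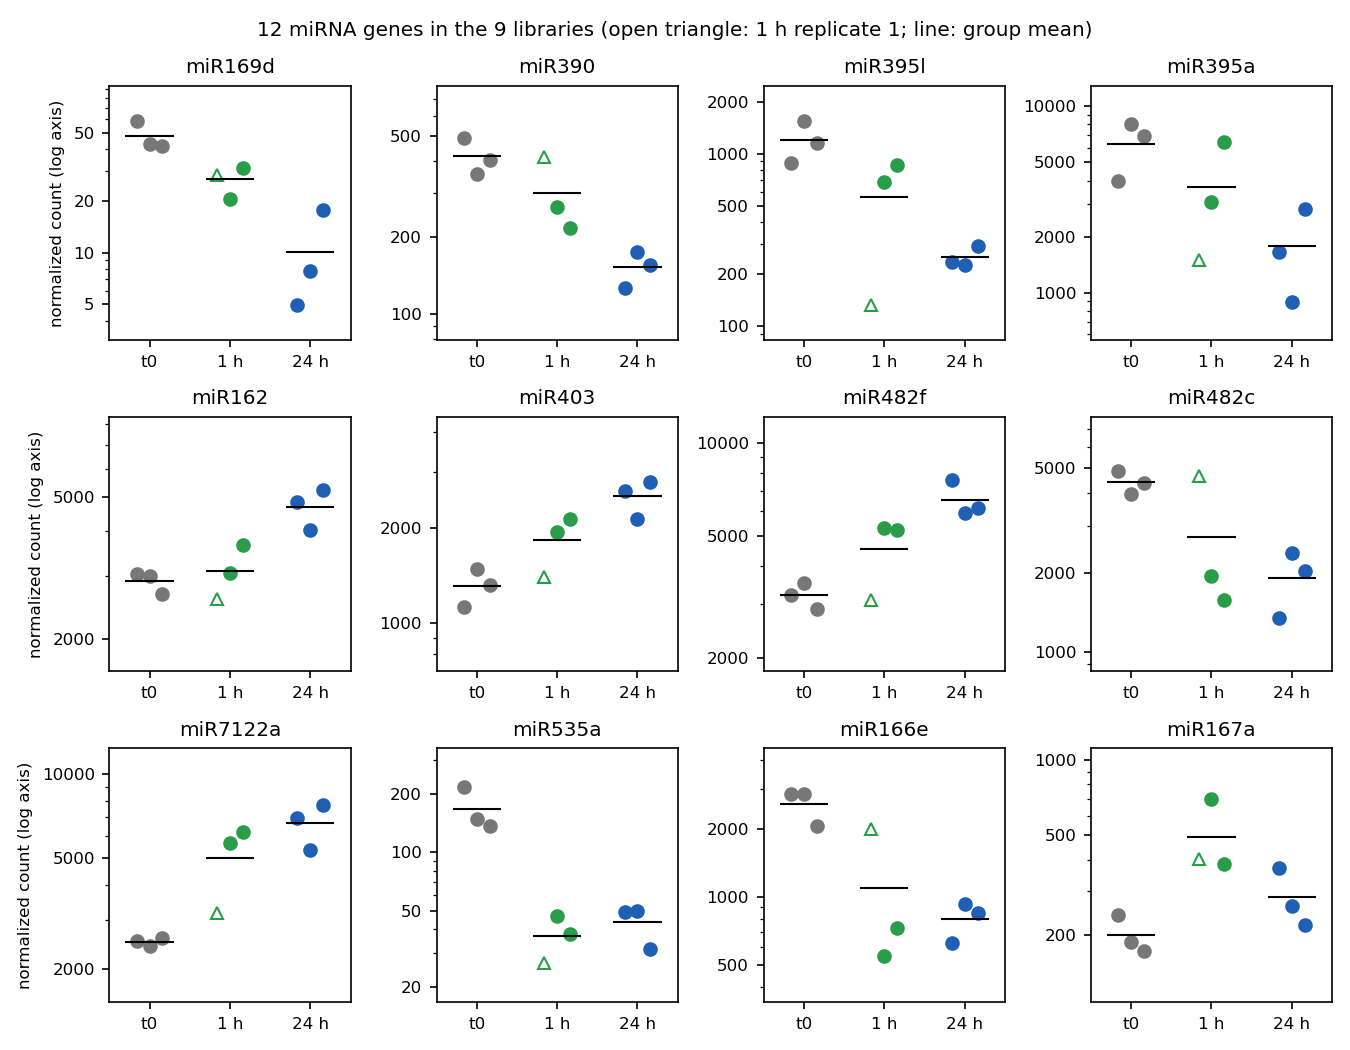
Normalized counts (log axis, its range set for each panel) of 12 miRNA genes in the 3 libraries of t0 (grey), 1 h (green) and 24 h (blue), with the group mean as a line and 1 h replicate 1 as an open triangle. In miR482c and miR166e this library had 4652 and 1999 normalized counts and lay near t0, while in miR395l it had 132 and lay below all other libraries.

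The miR482 family pairs with the conserved P-loop region of mRNAs of NLR immune receptors, as known from tomato and other plants, and can start secondary siRNAs from them. The mean log2 value of 3 of its 4 genes was higher at 24 h, and that of 1 was lower. In miR482f (ENSRNA049996209), 3215, 3527 and 2904 normalized counts at t0 were followed by 3098, 5309 and 5226 at 1 h and 7596, 5914 and 6159 at 24 h. All libraries of 24 h were above all of 1 h, by a log2 difference of 0.56 (95% interval 0.03 to 1.09, adjusted p = 0.336) that was 0.31 without 1 h replicate 1. In miR482e (ENSRNA049996194) they were also all above, with 491, 682 and 652 at 1 h and 871, 709 and 896 at 24 h, and a difference of 0.45, or 0.30 without 1 h replicate 1. For miR482a (ENSRNA049996187) the groups overlapped, with a difference of 0.31, or 0.09 without 1 h replicate 1.

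The abundant member of opposite course was miR482c (ENSRNA049996546), with 4869, 3959 and 4389.9 normalized counts at t0, 4652, 1940 and 1569 at 1 h and 1351, 2369 and 2026 at 24 h. Replicate 1 of 1 h was within the range of t0 and the others were within that of 24 h. The log2 difference between 24 h and 1 h was -0.38 with all libraries and 0.10 without that replicate. The sum of the 4 genes was 8598, 8480.1 and 8043 at 1 h and 10498, 9449 and 9804 at 24 h, and 9122, 8314 and 8002 at t0. The 24 h sums were above those of both other groups with the deposited scaling, but not as shares of the library total. As a share of the library total, the sum was 3.05, 2.53 and 3.00% at t0, 3.13, 2.31 and 2.18% at 1 h and 2.93, 2.60 and 2.67% at 24 h, so that 24 h overlapped with both, and replicate 1 of 1 h had the highest share.

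The miR7122 family is related to miRNAs that start secondary siRNAs from mRNAs of pentatricopeptide repeat proteins in Rosaceae. In miR7122a (ENSRNA049995989), 2517, 2423 and 2577 normalized counts at t0 were followed by 3167, 5646 and 6205 at 1 h and 6968, 5355 and 7763 at 24 h. The 1 h libraries were all above t0, and replicates 2 and 3 overlapped with 24 h. In miR7122b (ENSRNA049995981), 115, 119 and 111 at t0 were followed by 178, 329 and 398 at 1 h and 346, 314 and 443 at 24 h. The log2 difference between 24 h and 1 h was 0.46 for miR7122a (95% interval -0.14 to 1.06) and 0.35 for miR7122b (-0.33 to 1.02), and without 1 h replicate 1 it was 0.16 and 0.01. For miR8127 (ENSRNA049996319), 2133, 1644 and 1632 normalized counts at 1 h were followed by 1405, 1331 and 1380.2, all below, with a log2 difference of -0.38 (-0.75 to -0.01, adjusted p = 0.350), or -0.26 without 1 h replicate 1.

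**Figure D4:**
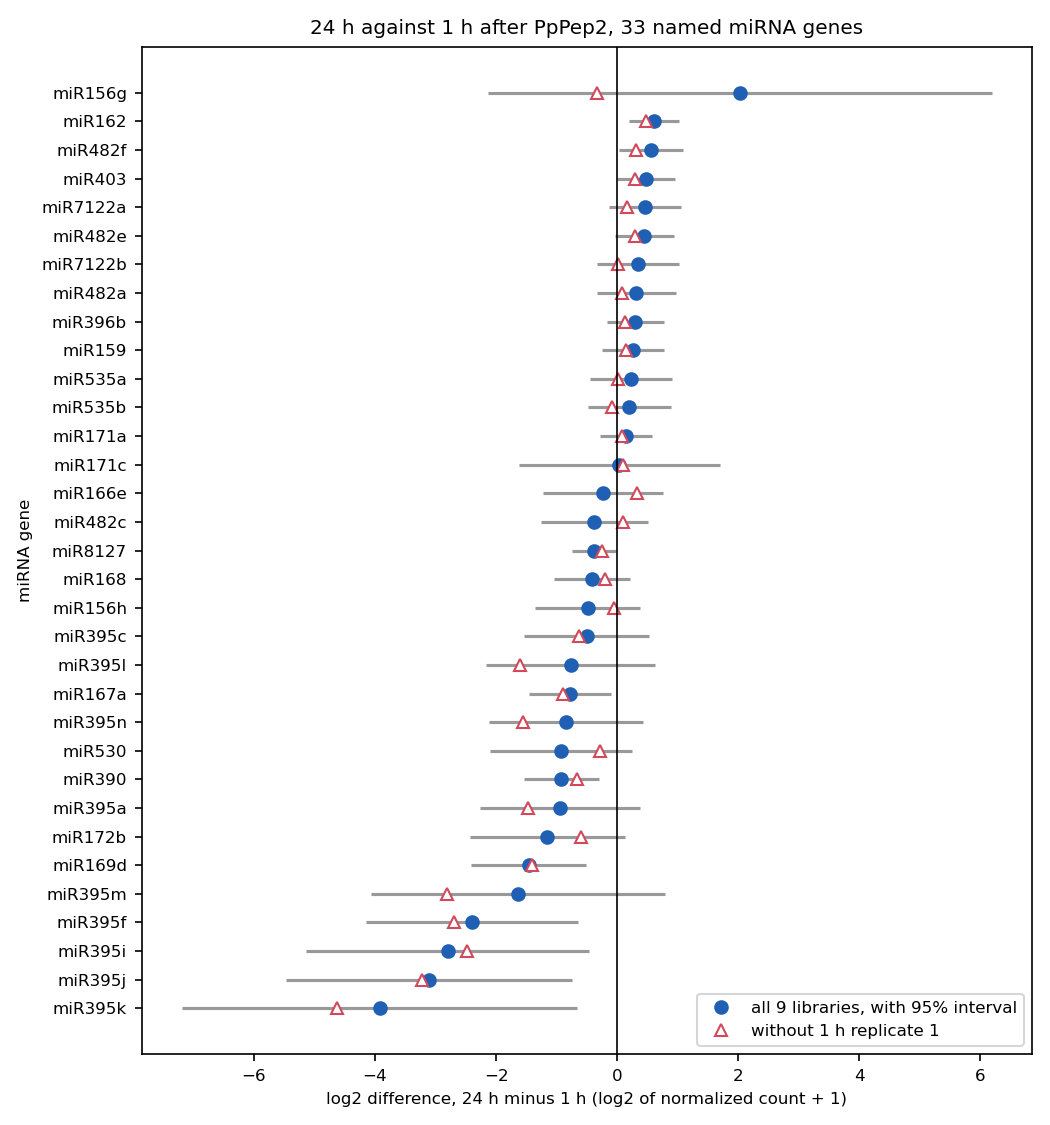
Log2 difference of 24 h minus 1 h (horizontal axis) for the 33 named genes (vertical axis), as blue points with 95% intervals from the fit to all 9 libraries and as open triangles without 1 h replicate 1. The interval of miR162 ran from 0.19 to 1.02 and that of miR390 from -1.54 to -0.31, while miR156g, at 2.03, had an interval from -2.13 to 6.18.

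Among the 102 genes without a study name, ENSRNA049996993 had the smallest p of all genes tested. It had 1677, 799 and 1283 normalized counts at t0, 1958, 1771 and 1348 at 1 h and 722, 957 and 793 at 24 h. All libraries of 24 h were below those of 1 h, at a ratio of means of 0.487 and a log2 difference of -1.03 (95% interval -1.68 to -0.38, adjusted p = 0.307), and of -0.92 without 1 h replicate 1. The gene ENSRNA049996971 returned, with 28.0, 11.4 and 24.4 at t0, 74.7, 28.9 and 31.1 at 1 h and 14.8, 23.5 and 11.3 at 24 h. Its log2 difference was -1.31, and -0.88 without 1 h replicate 1, which was the highest of the 9 libraries. The other 8 genes named by the largest difference among those without overlap had log2 differences between -0.81 (ENSRNA049996698) and 0.75 (ENSRNA049996654). Of these, ENSRNA049996202, at 5051 to 8806 normalized counts at 1 h and 9695 to 11126 at 24 h, was the most abundant.

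The place of each 1 h library between t0 and 24 h was then given on a scale where 0 is the mean log2 value of t0 and 1 that of 24 h, for the 34 genes in which these means differed by at least 1. This is a description of the spread at 1 h. The difference that picked the genes uses the groups t0 and 24 h only, but the minimum mean and the study's list also used the 1 h libraries. Over these genes the median place was 0.290 for replicate 1, 0.632 for replicate 2 and 0.608 for replicate 3. Among the named genes, the medians ran in opposite directions inside and outside the miR395 family. Over the 14 named genes outside the miR395 family the median was 0.224 for replicate 1, 0.842 for replicate 2 and 1.046 for replicate 3. Over the 9 miR395 genes it was 0.797, 0.310 and 0.184, so that by the median the library nearest to t0 in the former was the nearest to 24 h in the latter. Single genes departed from this, with replicate 1 at 1.03 in miR171c, and at 0.19 in miR395i and 0.22 in miR395j. The 8 miR395 genes with a shared sequence do not count as separate observations.

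In single genes, replicate 1 of 1 h had a place of -0.07 in miR482c, -0.01 in miR390 and 0.06 in miR530, next to t0. It had a place of 1.41 in miR395l, 1.05 in miR395a, 1.64 in miR535b and 1.34 in miR535a, beyond the mean of 24 h. In miR169d the 3 libraries were closest together among the named genes outside the miR395 family, at 0.31, 0.51 and 0.26. Replicate 1 also had the lowest total of normalized counts and the highest depth of the 1 h libraries, and their part in this spread was not tested.

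**Figure D5:**
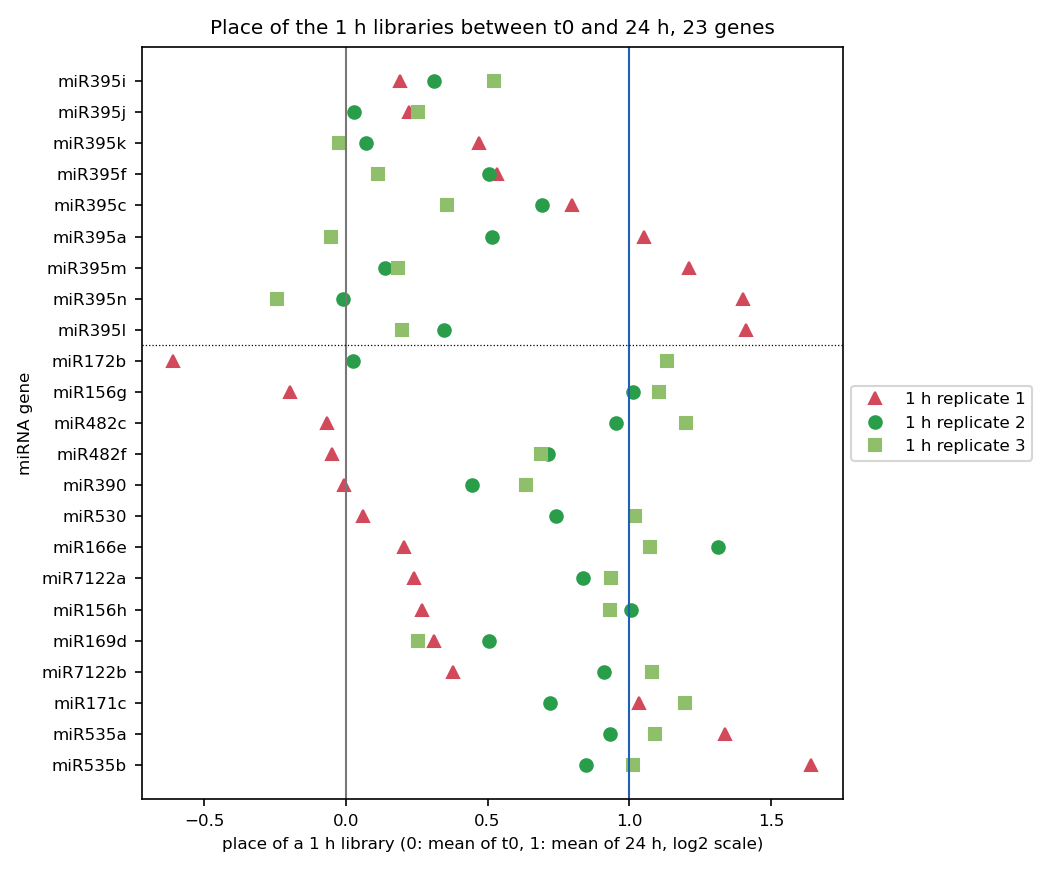
Place of each 1 h library (horizontal axis, 0 for the mean of t0 and 1 for the mean of 24 h on the log2 scale) for the 23 named genes with a difference of at least 1 between these means, with the 9 miR395 genes above the dotted line. Triangles are replicate 1, circles replicate 2 and squares replicate 3. Replicate 1 lay under 0.25 in 8 of the 14 genes below the line and over 0.75 in 5 of the 9 above it.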

How the data were processed

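The authors trimmed the small RNA reads with Trim Galore 0.6.6, mapped them with STAR 2.5.3a to the peach genome, quantified pre_miRNA genes with RSEM 1.3.0 and scaled them with DESeq2 1.26.0. The authors deposited normalized counts with decimals, a scaled signal and not raw reads, so the division of reads between genes with the same mature sequence and the scaling are already in them. No count model was fitted to them, and reads read from the value of 1 read were used only for depth and to compare replicates. Groups and replicate numbers came from the sample labels.

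Values were compared as log2(normalized count + 1) with limma 3.58.1 in R 4.3.3, with a trend in the variance, in 1 fit that held all 9 libraries and the 135 genes whose mean was 5 or more, with Benjamini-Hochberg adjustment over these genes. The added 1 understates the change of low genes. The fit was also run on simulated data, which held no library that departed from its group and so do not cover that case. Plots and descriptions used Python 3.11.15, pandas 2.3.3, numpy 2.4.6 and matplotlib 3.10.9. The p-values measure the spread between replicate pools only. A class was given from the steps t0 to 1 h and 1 h to 24 h with a limit of 0.5.

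Genes described were the 33 of the study's list, the 10 others with the largest difference among those without overlap and a mean of at least 20, and the 3 of highest mean. The members and lists were chosen with earlier results of these data known. The value added, the minimum mean, the scaling, the trend, library weights, the libraries in the fit, a replicate block, summed copies, the class limit and each library left out were varied. The counts of genes without overlap when 1 h replicate 1 is left out, the place with medians, and family sums as a share of the library total were added after the data were seen. Gene names and mature sequences came from the study, since 0 of the 210 identifiers matched the RefSeq table used here, and no genome positions are given. Target genes were not analysed here.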

Additional observations from a re-analysis of the deposited data

How the results depend on the processing

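The number of genes with an adjusted p under 0.05 was 0 in the 11 alternatives with all replicates, also with 0.1 as the limit, and between 0 and 2 with a library left out. The count at an unadjusted p under 0.05 was 18, and 15 with the replicate block. The deviations of 1 h and 24 h libraries with the same replicate number had correlations of -0.41, -0.08 and 0.10. They were 0.015, 0.169 and 0.163 for t0 with 1 h, and -0.029, 0.126 and 0.041 for t0 with 24 h. With 3 libraries per group these values cannot settle whether replicate numbers pair the samples, and the block is given only here.

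Of the classes, 15 genes kept moving, which became 30 with a limit of 0.3, 4 with a limit of 1 and 9 with group medians. The 9 genes that returned became 19, 2 and 14, then 5 with 5 added before the log, 5 with a minimum mean of 20 and 22 with no minimum mean. The 56 with small steps became 29 and 101 at the 2 limits and 97 with no minimum mean, 34 that levelled off became 14 at a limit of 1, and 21 that moved late became 35 with no minimum mean. With a library left out the counts were 10 to 20 for kept moving, 22 to 41 for levelled off, 8 to 14 for returned, 18 to 29 for moved late and 51 to 62 for small steps. The median place of 1 h replicate 2 was 0.829 with the same upper quartile in place of 0.632. The causes were not tested.

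Of the 46 genes described, 9 changed sign under at least 1 alternative. With copies summed, miR156g was at -0.11. With library weights, miR166e was at 0.21, miR535b at -0.022 and ENSRNA049997141 at -0.12. With the same total, miR171c was at -0.079, ENSRNA049997204 at -0.10 and ENSRNA049997141 at -0.082, and with the same upper quartile ENSRNA049997204 was at -0.0095. With a library left out the log2 difference ran from -0.34 to 3.34 in miR156g, -0.61 to 0.33 in miR166e, -0.26 to 0.28 in miR171c, -0.87 to 0.076 in miR395c, -0.69 to 0.10 in miR482c, -0.0835 to 0.39 in miR535b, -0.069 to 0.63 in ENSRNA049996936, -0.021 to 0.059 in ENSRNA049997204 and -0.21 to 0.20 in ENSRNA049997141. With 3 libraries per group and the floors of up to 7.84 normalized counts, differences of genes near the floor could not be measured.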

Other observations

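The gene with the highest mean of the series, ENSRNA049996936, which the study does not name, had 45012, 68724 and 41316 normalized counts at t0, 39986, 105560 and 98761 at 1 h and 91006, 104503 and 97025 at 24 h. Replicate 1 of 1 h was below all t0 libraries, whereas the other 1 h libraries were within or just above the range of 24 h. The log2 difference between 24 h and 1 h was 0.38 (95% interval -0.43 to 1.19) and became -0.07 without that library. In ENSRNA049997141 the normalized counts were 24409, 39019 and 43331 at 1 h and 33444, 33851 and 39584 at 24 h. Replicate 1 of 1 h was again the lowest of the PpPep2 libraries. It lay just above all t0 libraries of this gene, which had 24221, 23188 and 20298. In ENSRNA049997204 replicate 1 of 1 h, at 32406, lay between the other 1 h libraries, at 30202 and 33747, and the values at 24 h were 32283, 34377 and 31200. Replicate 1 of 1 h was thus the lowest PpPep2 library in ENSRNA049996936 and ENSRNA049997141 and not in ENSRNA049997204.

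The gene ENSRNA049997224 was named after its values were seen. It had 62.5, 0 and 0 normalized counts at 1 h and 44.3, 136 and 96.9 at 24 h, and at t0 it was above 0 in 1 library, at 33.2. It was above 0 in every library of 24 h and in 1 of 3 libraries at each other time, and the groups of 1 h and 24 h overlapped.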
